A study of Homo sapiens with 6 samples.

Results

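The genes described here encode proteins that the liver releases into blood: the apolipoproteins APOB, APOA1, APOA2, APOC3 and APOE, the carrier proteins AFP, ALB and TTR, the clotting protein FGB and the acute-phase protein SAA1. They were chosen by symbol, as 10 of the 35793 genes in the deposited table. The choice was made with the wild-type and knockout values of these same libraries known, so the differences between genotypes are given for these 10 genes as a description, and no p-value is printed for them. The libraries came from cardiomyocytes that had been differentiated out of WTC11, an established human induced pluripotent stem cell line, wild type for STK25. The other genotype, labelled STK25KO, was an isogenic WTC11 derivative in which CRISPR/Cas9 had made a homozygous knockout of STK25. This gene codes for a kinase known from the STRIPAK phosphatase complex and from the surface of lipid droplets in liver cells. Both genotypes were sampled on day 15 in 3 biological replicates, with no treatment named for either. The pair held 1 cell line of each genotype, so the edit cannot be told apart from any other difference between the lines.

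Apolipoproteins are the protein part of lipoprotein particles. APOB is the large scaffold around which triglyceride-rich particles are assembled with the transfer protein MTTP, in liver, intestine, yolk sac and also heart muscle. APOA1 and APOA2 are the main proteins of high-density lipoprotein, APOC3 restrains lipoprotein lipase, and APOE binds lipoprotein receptors on cells and is made by many cell types beyond liver. AFP and ALB are related carrier proteins of fetal and adult blood, TTR carries thyroxine and retinol-binding protein, FGB is the beta chain of fibrinogen, and SAA1 is induced in liver by inflammatory cytokines. Hepatocytes and yolk sac endoderm transcribe these genes under factors of the HNF1, HNF4, FOXA and C/EBP families.

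Reads assigned to genes ran from 22443904 to 53224112 per library. Values are the authors' normalized counts, which are whole numbers divided by 1 factor per library. These whole numbers are called reads here, though kallisto, named in the processing notes, estimates counts. On that scale 1 read was worth from 0.638 to 1.51 normalized counts. STK25 itself had 6774 to 8874 normalized counts in the wild type and 3434 to 3906 in the knockout (log2 difference -1.12, SE 0.19, limma adjusted p = 0.00903). Without wild-type replicate 1 the limma adjusted p was 0.0609. All 14 cardiomyocyte genes listed were tested, and their summed level was 2058040 to 2467230 normalized counts in the wild type and 3297380 to 5167610 in the knockout, with TNNT2 from 206999 to 359162 and TTN from 41954 to 83722. ACTC1 alone had means of 647500 and 1354000 in the wild type and the knockout (limma adjusted p = 0.0958). MYH6 was lower in the knockout, at 62131 ± 7191 against 142436 ± 47695 (SD, n = 3 each), without overlap (limma adjusted p = 0.0531). With limma 2 of the 14 passed and both fell, with DESeq2 10 passed, and the median log2 difference was 0.49. They were NKX2-5, a cardiac transcription factor (-1.71, limma adjusted p = 0.00135), and PLN, a regulator of the calcium pump (-0.76, limma adjusted p = 0.0459). The call of PLN was lost in the 5 fits that left out any library but knockout replicate 1, with limma adjusted p-values up to 0.176. The part of this list in the results below was not tested. Wild-type replicate 2 and knockout replicate 1 stood apart from the other libraries of their genotypes, with higher values for short transcripts. Results that rest on these libraries are given with and without them.

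Promoters of 5 of the 10 genes were matched by symbol in the RefSeq windows of GRCh38.p14, which run from 250 bases before to 50 after a transcription start. APOB, APOA1, APOC3, TTR and SAA1 were not matched. APOE had 3 such windows and FGB 2, from alternative starts, and the one nearest the start of its principal transcript in GENCODE 29 was used. The windows of AFP, ALB, FGB and APOE are shown, because AFP and ALB are neighbours whose levels differed, AFP and FGB were both detected mainly in the wild type, and APOE was abundant in both genotypes. Each is written 5′ to 3′ on the strand of its gene, with capitals marking any match, on either strand to any of 6 short motifs. The TATA box was searched as TATAAA. For HNF1, the letters searched were GTTAAT. For HNF4, they were CAAAGTC. For FOXA factors, the search used TGTTTAC and, as another common form of that motif, it used TATTTAC. For C/EBP factors, the letters were GCAAT. A window may hold several matches, and overlapping matches were all kept. AFP lies at chr4:73435971-73436270, ALB at chr4:73404037-73404336, FGB at chr4:154562730-154563029 and APOE at chr19:44905546-44905845, all on the plus strand.
AFP promoter: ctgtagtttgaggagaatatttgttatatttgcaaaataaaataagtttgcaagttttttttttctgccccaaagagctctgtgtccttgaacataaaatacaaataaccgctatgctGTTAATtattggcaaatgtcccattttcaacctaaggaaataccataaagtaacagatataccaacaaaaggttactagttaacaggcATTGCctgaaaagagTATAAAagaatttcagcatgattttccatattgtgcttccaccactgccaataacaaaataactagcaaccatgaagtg
ALB promoter: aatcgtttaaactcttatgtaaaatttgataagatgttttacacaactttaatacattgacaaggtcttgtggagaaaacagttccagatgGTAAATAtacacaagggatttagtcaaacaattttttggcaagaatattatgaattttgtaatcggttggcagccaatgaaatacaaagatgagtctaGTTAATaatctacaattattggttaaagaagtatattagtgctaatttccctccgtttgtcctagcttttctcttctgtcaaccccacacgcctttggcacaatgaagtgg
FGB promoter: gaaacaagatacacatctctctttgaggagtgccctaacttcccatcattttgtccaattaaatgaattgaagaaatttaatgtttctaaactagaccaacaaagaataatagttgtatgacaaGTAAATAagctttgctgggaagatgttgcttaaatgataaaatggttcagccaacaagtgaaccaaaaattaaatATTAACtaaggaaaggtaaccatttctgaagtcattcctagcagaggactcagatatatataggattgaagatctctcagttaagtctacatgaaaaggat
APOE promoter: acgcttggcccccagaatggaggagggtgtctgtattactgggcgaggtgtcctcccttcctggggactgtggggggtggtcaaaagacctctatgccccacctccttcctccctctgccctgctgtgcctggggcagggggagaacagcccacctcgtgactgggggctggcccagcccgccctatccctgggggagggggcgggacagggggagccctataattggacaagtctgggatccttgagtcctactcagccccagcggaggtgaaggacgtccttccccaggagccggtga

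The AFP, ALB and FGB windows each held GTTAAT on 1 strand, as did 6.88% of the 35116 promoter windows of the same length. The match began 132 bases before the start in AFP, 61 in ALB and 51, on the minus strand of the window, in FGB. Of the 5 windows, the one of AFP held TATAAA, found in 11.5% of all windows, and, on the other strand, GCAAT, found in 24.5%. ALB and FGB held TATTTAC on the other strand (2.67% of all windows). The APOA2 window (chr1:161223579-161223878, minus strand) held TGTTTAC on the other strand (3.42%). None of the 5 held CAAAGTC (3.37%), and the APOE window held none of these letters. The other windows of APOE held none either, and the other window of FGB, which overlaps the one shown, held the same motifs. A match is a description of the letters and not evidence of binding. The AFP, ALB and FGB windows contained 33%, 33.3% and 32.7% G or C, against 65% for APOE.

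In the knockout APOB and APOE were higher, AFP, FGB and SAA1 were low or without reads, and APOA1, APOA2 and TTR had lower means. ALB and APOC3 were close to undetected in both genotypes. With limma, 5 of the 8 tested genes had a Benjamini-Hochberg adjusted p under 0.05 (2 higher, 3 lower), where 12.8% of all 15536 tested genes did (5.97% higher, 6.79% lower). The choice of genes used this contrast, and nothing is read from that count. The groups did not overlap for 7 of the 8, 2 higher and 5 lower, where 33.4% of all tested genes had no overlap (16.2% higher, 17.2% lower). The number passing was 3 without wild-type replicate 1 or without wild-type replicate 3, when APOE and FGB no longer passed, 4 without knockout replicate 3, when APOE did not, and 7 without knockout replicate 1, when APOA2 and TTR passed too. Of all 15536 genes, 796, 916, 962 and 2181 passed in these same fits. A gene was tested where its mean over the 6 libraries was at least 10; 6 of the 8 had a mean under 10 in the lower genotype and so passed through the other.

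**Figure D1:**
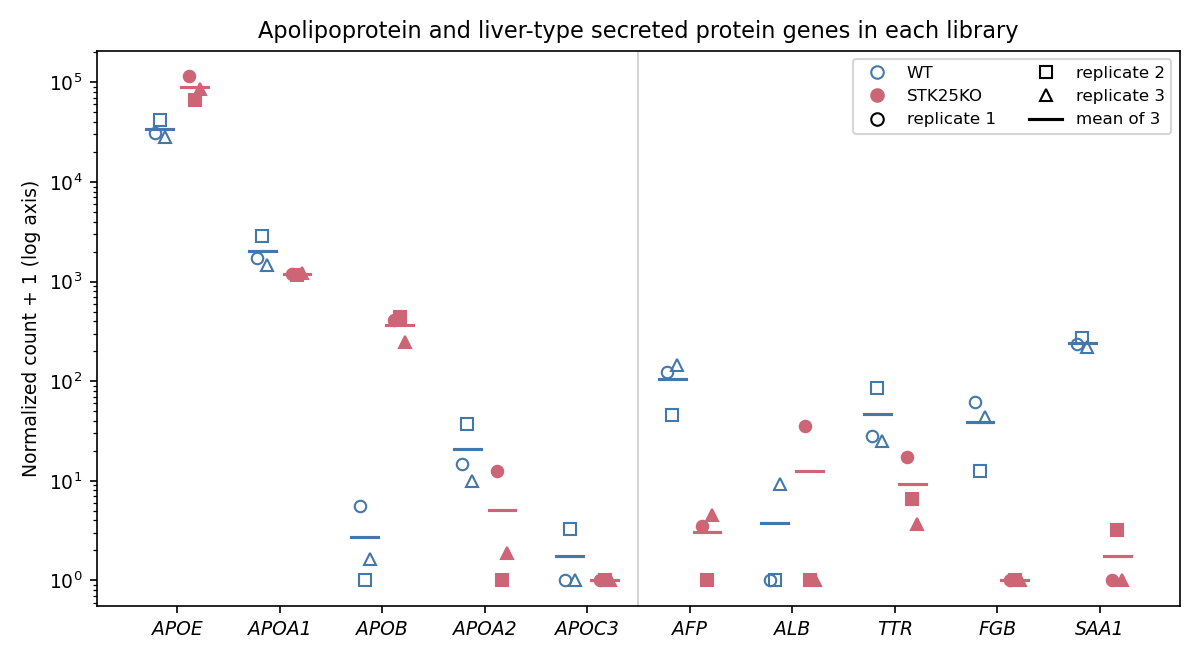
Normalized count plus 1 (log axis) of the 10 genes in each of the 6 libraries; open blue symbols are wild type, filled red symbols STK25KO, the symbol shape is the replicate number and the line is the mean of 3. APOE and APOA1 lie above 1000 in every library, APOB is found in the knockout libraries, and AFP, FGB and SAA1 in the wild-type libraries.

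APOB (chromosome 2, minus strand, 21001429 to 21044073; GENCODE 29 on GRCh38, as are all gene positions here) had 4.53, 0 and 0.638 normalized counts in wild-type replicates 1, 2 and 3. In the knockout it had 411, 440 and 247. The wild-type values rest on 4 reads in all and the knockout values on 996, so the knockout libraries were far above the wild-type ones, with no overlap. The ratio of pooled reads, scaled by the libraries' factors, was 314 with a 95% interval of 122 to 1155 (exact Clopper-Pearson, counting error only). The fitted log2 difference was 7.42 with an SE of 0.72, on log2(normalized count + 1), which understates the change of low genes. Lower RNA per cell and fewer cells of a type cannot be told apart in such bulk samples, for this and every gene below.

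APOE (chromosome 19, 44905754 to 44909393) was the most abundant of the 10 genes in every library. It had 30949, 42071 and 28180 normalized counts in the wild type and 115840, 65923 and 85559 in the knockout. The lowest knockout library was above the highest wild-type one. The means were 33733 ± 7352 and 89107 ± 25147 (SD, n = 3 each), a log2 difference of 1.38 with an SE of 0.29. APOE ranked from 92 to 104 among all genes of a wild-type library and from 33 to 40 in the knockout, and made up 0.0830% to 0.108% and 0.169% to 0.232% of the reads. It supplied at least 92.7% of the reads of these 10 genes in each library.

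APOA1 (chromosome 11, minus strand, 116835751 to 116837950) had 1723, 2873 and 1482 normalized counts in the wild type and 1195, 1164 and 1226 in the knockout. All 3 knockout libraries were lower than the wild-type ones and lay close together. The means were 2026 ± 743 and 1195 ± 31.4 (SD, n = 3 each), a log2 difference of -0.70 with an SE of 0.27. Wild-type replicate 2 carried much of it: without that library the difference was -0.42. APOA2 (chromosome 1, minus strand, 161222292 to 161223631), the partner of APOA1 in high-density lipoprotein, had 13.6, 36.6 and 8.93 normalized counts in the wild type and 11.4, 0 and 0.889 in the knockout. These groups overlapped, since knockout replicate 1 was higher than wild-type replicate 3. The fitted difference was -2.62 with an SE of 1.13, -2.07 without wild-type replicate 2, which held 48 of the 71 wild-type reads, and -3.68 without knockout replicate 1. Over the 6 fits without 1 library it ran from -3.68 to -1.86, the latter without knockout replicate 2. APOC3 (chromosome 11, 116829706 to 116833072) had 3 reads in wild-type replicate 2 and 0 in the other 5 libraries, which is at the floor of 3 reads, so no fold is given.

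AFP (chromosome 4, 73431138 to 73456174) had 122, 44.9 and 145 normalized counts in the wild type and 2.54, 0 and 3.55 in the knockout. The groups did not overlap, and wild-type replicate 2 was the lowest of its genotype. The pooled reads, 367 against 6, gave a ratio of 48.5 (95% exact interval 22.1 to 133, counting error only), and the fitted log2 difference was -5.21 with an SE of 0.82. ALB, whose start lies 31.9 kb from that of AFP, had reads in 1 library of each genotype: 13 in wild-type replicate 3 and 27 in knockout replicate 1. These were 8.29 and 34.3 normalized counts, so ALB neither followed AFP nor repeated between replicates.

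TTR (chromosome 18, 31557010 to 31599021) had 27.2, 85.3 and 24.2 normalized counts in the wild type and 16.5, 5.57 and 2.67 in the knockout. The groups did not overlap and came closest in knockout replicate 1 and wild-type replicate 3. The fitted difference was -2.39 (SE 0.81). Leaving out wild-type replicate 2 gave -1.83, and leaving out knockout replicate 1 gave -3.01. FGB (chromosome 4, 154562956 to 154571086) had 60.4, 11.4 and 42.7 normalized counts in the wild type and no read in the 3 knockout libraries. Set against a floor of 3 reads over the knockout libraries together, FGB was at least 32.2-fold lower there. SAA1 (chromosome 11, 18266174 to 18269977) had 233, 270 and 218 normalized counts in the wild type and 0, 2.23 and 0 in the knockout. The groups were far apart, and the wild-type replicates lay close together at 240 ± 26.5 (SD, n = 3); 850 pooled reads stood against 2, a ratio of 337 (95% exact interval 93.0 to 2787, counting error only).

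**Figure D2:**
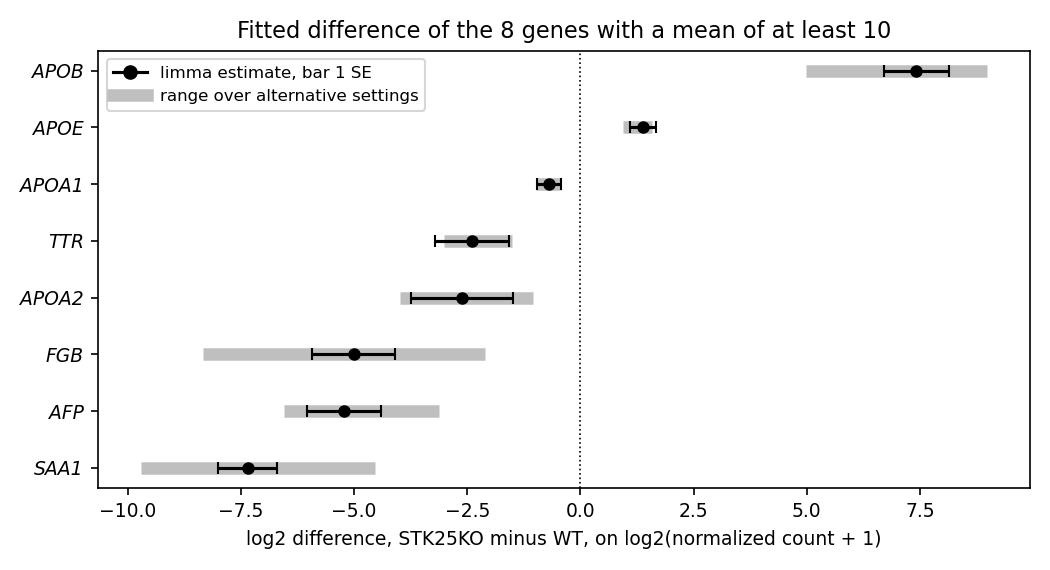
Fitted log2 difference (STK25KO minus WT) of the 8 genes with a mean of at least 10; points are limma estimates, black bars 1 SE and grey bars the lowest to highest value over the alternative settings. APOB and APOE lie above 0 and the other 6 below 0, the grey bars included; the widest bars belong to the genes with few reads in 1 genotype.

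Levels can be compared between genes when divided by the length of each gene's principal coding transcript. In the wild type, APOE had 27925 ± 6086 normalized counts per kb, APOA1 1651 ± 606 and SAA1 356 ± 39.3 (SD, n = 3 each). TTR (47.6 ± 36.0), AFP (41.9 ± 21.1), APOA2 (41.6 ± 31.2) and FGB (19.3 ± 12.6) followed, with overlapping ranges of mean ± SD. In each wild-type library AFP was above FGB per kb. APOC3 (1.38), ALB (1.22) and APOB (0.122) were last. In the knockout the order per kb was APOE (73764 ± 20817), APOA1 (974 ± 25.6) and APOB (25.9 ± 7.37). APOA2 (8.67 ± 13.4), TTR (8.63 ± 7.64) and ALB (5.06 ± 8.76) came next, with overlapping ranges of mean ± SD. SAA1 and AFP were at 1.10 and 0.818, and FGB and APOC3 at 0. Since APOB has a transcript of 14.1 kb and APOE one of 1.21 kb, the knockout level of APOB per kb was far below that of APOE.

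Within the wild type, the 10 genes differed in how replicate 2 compared with replicates 1 and 3. TTR and APOA2 were 3.32-fold and 3.25-fold higher in replicate 2 than in the mean of the others, APOA1 1.79-fold and APOE 1.42-fold. AFP and FGB were at 0.336 and 0.222 of that mean. Over 15179 tested genes the same comparison had a median log2 difference of 0.86 for transcripts under 1000 bases and -0.33 for those from 4000 to 8000 bases. AFP (2484 bases) and FGB (1975 bases) were lower in that library than the medians of their length classes, -0.12 and 0.40, and TTR (957 bases) higher. In the knockout, replicate 1 had a median of 0.97 for transcripts under 1000 bases against replicates 2 and 3, and TTR differed there by 1.84, APOE by 0.63 and APOA1 by 0.00030. When each library's trend over transcript length was removed, an alternative chosen after seeing the data, 7 of the 8 tested genes passed the limma threshold, as did 19.4% of all 15179 genes in that fit. The part of transcript length in the other differences was not tested.

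**Figure D3:**
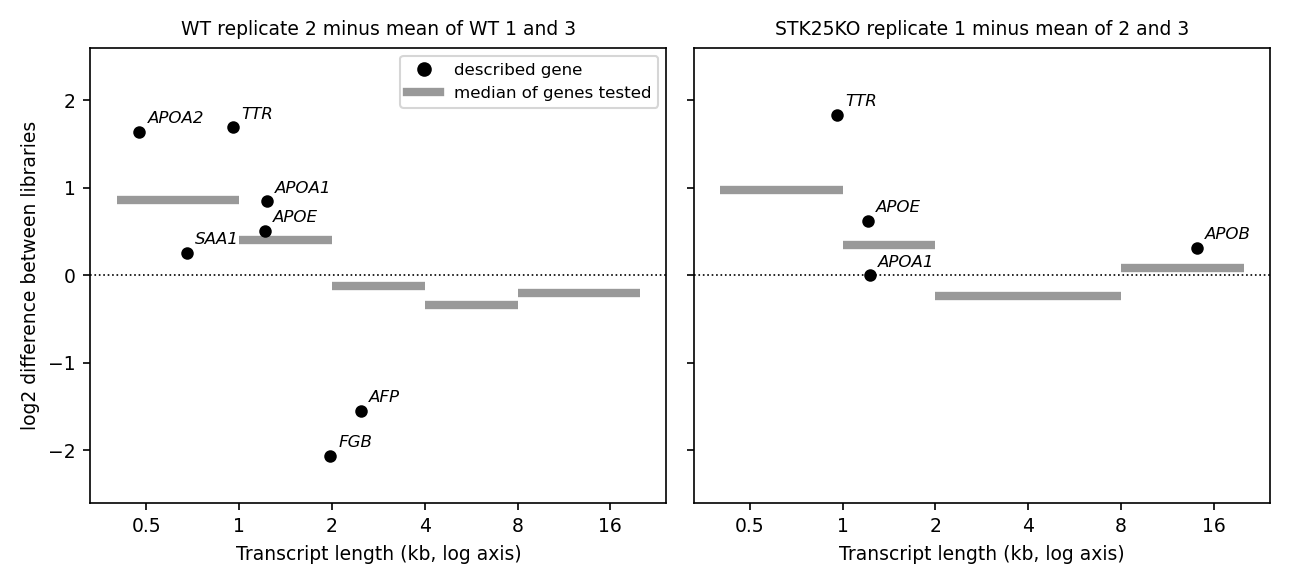
Log2 difference of 1 library from the mean of the other 2 of its genotype against transcript length (log axis); points are the described genes with enough reads and grey bars the medians of all tested genes per length class. In wild-type replicate 2, TTR, APOA2 and APOA1 are high and AFP and FGB low; in knockout replicate 1, TTR is high and APOA1 near 0.

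Neighbouring genes on the chromosome were compared next, since most of these genes lie in clusters. Among 33 neighbours listed, 20 were tested and 2 passed the limma threshold, LRAT and SAA2. In the SAA cluster on chromosome 11, SAA2 starts 17.6 kb from SAA1 and encodes a nearly identical protein. SAA2 had 154, 263 and 131 normalized counts in the wild type and 63.6, 15.6 and 14.2 in the knockout, with no overlap. It fell by 2.79 on the log2 scale (SE 0.63, limma adjusted p = 0.0263). That call was lost without any 1 of wild-type replicates 1, 2 and 3 and knockout replicates 2 and 3, with limma adjusted p-values up to 0.0918. Reads of SAA1 and SAA2 may have been split between the genes in the authors' counting, so their separate levels are uncertain. SAA4 was not tested; its 63 wild-type and 10 knockout reads gave a 95% exact interval of 2.55-fold to 10.9-fold for wild type over knockout, counting error only.

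In the fibrinogen cluster on chromosome 4, FGA and FGG encode the other chains of the protein. FGA had 15.1, 16.8 and 7.02 normalized counts in the wild type and no read in the knockout, at least 11.4-fold lower against a floor of 3 reads over those libraries. FGG had 27.2 normalized counts in wild-type replicate 1, 2.67 in knockout replicate 3 and 0 elsewhere. LRAT, a retinol-esterifying enzyme 181 kb from FGB, went the other way and rose by 2.05 (SE 0.32, limma adjusted p = 0.00657). PLRG1, a splicing factor 12.5 kb from FGB, had a difference of 0.47 (limma adjusted p = 0.177). APOC1, 8.49 kb from APOE, had 405, 897 and 418 normalized counts in the wild type and 1070, 281 and 539 in the knockout. These values overlapped (log2 difference 0.03, limma adjusted p = 0.979), unlike those of APOE. TOMM40, NECTIN2 and CLPTM1 on the same stretch had differences of 0.39, 0.51 and 0.91 (limma adjusted p = 0.175, 0.110 and 0.0838). CLPTM1 passed without knockout replicate 1 (limma adjusted p = 0.0152).

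Around APOA1, the genes ZPR1, BUD13 and SIK3 had differences of 0.42, 0.13 and 0.37 (limma adjusted p = 0.155, 0.805 and 0.566). APOA5 had no read and APOA4 had reads in 1 library, knockout replicate 3 (18.7 normalized counts). Of the neighbours of ALB and AFP, AFM and GC (1620 kb from ALB) had no read in any library and RASSF6 had a mean under 10. Near APOB, LDAH had a difference of 0.11 (limma adjusted p = 0.884) and TDRD15 no read. GDF7, 377 kb from APOB, was below the filter, and KLHL29, 2341 kb from APOB, differed by 2.50 (limma adjusted p = 0.135). Around TTR, DSG2 and B4GALT6 had -0.26 and -0.34 (limma adjusted p = 0.652 and 0.544), and SLC25A52 was below the filter. Near APOA2, TOMM40L, FCER1G, SDHC and NR1I3 had 0.29, 0.53, 0.32 and 2.15 (limma adjusted p = 0.466, 0.574, 0.530 and 0.156); NR1I3, a xenobiotic receptor, did not exceed 26.7 normalized counts. The low APOC4 and APOC2 near APOE, and HPS5 and GTF2H1 near SAA1 (limma adjusted p = 0.700 and 0.193), complete the neighbours; GTF2H1 passed without knockout replicate 1 (limma adjusted p = 0.0410).

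Genes of the same pathways were then counted in 13 lists of 218 genes apart from the 10, of which 128 were tested. With limma 23 passed (18.0%), 13 higher and 10 lower, beside 12.8% of all tested genes; the median log2 difference was 0.09, against 0.01 for all. With libraries scaled to equal totals, which shifted the median of all genes by -0.28, 19 passed, 8 higher and 11 lower.

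Of 20 other apolipoproteins, 9 were tested and 0 passed with limma, DESeq2 or edgeR, with 1 at an unadjusted limma p under 0.05. CLU, an extracellular chaperone in high-density lipoprotein, had 997 ± 168 and 684 ± 99.3 normalized counts in the wild type and the knockout (SD, n = 3 each), without overlap. APOM, which carries sphingosine phosphate, had 127 ± 32.8 and 126 ± 64.2 (SD, n = 3 each).

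Of 16 assembly and secretion genes, 14 were tested and 2 fell. CES1, a carboxylesterase that handles stored lipid in liver, had 875, 708 and 971 normalized counts in the wild type and 16.5, 8.92 and 7.11 in the knockout (log2 difference -6.24, SE 0.40, limma adjusted p = 0.000198). PLTP, the phospholipid transfer protein, fell by 1.72 (SE 0.22, limma adjusted p = 0.00276). MTTP, which loads lipid onto APOB, had 9.06, 11.4 and 26.2 normalized counts in the wild type and 43.2, 34.6 and 77.3 in the knockout. Its groups did not overlap, but it did not pass (log2 difference 1.73, SE 0.60, limma adjusted p = 0.105). FABP1 had reads in wild-type replicate 2 alone (6.09 normalized counts).

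Of 26 receptor and lipase genes, 20 were tested and 6 passed, 4 higher and 2 lower. VLDLR, an APOE receptor, had 1835, 1449 and 2369 normalized counts in the wild type and rose to 5623, 8282 and 6635 in the knockout (log2 difference 1.87, SE 0.25, limma adjusted p = 0.00314). LRP1, another APOE receptor, fell to 559 ± 190 from 1311 ± 229 (SD, n = 3 each; limma adjusted p = 0.0359). The endothelial lipase LIPG rose by 2.74 (limma adjusted p = 0.0103) and the sorting receptor SORT1 by 1.61 (limma adjusted p = 0.0295). MYLIP, a ligase that marks lipoprotein receptors for breakdown, fell by 1.86 (limma adjusted p = 0.00970). The hepatic lipase LIPC, named after its values were seen, rose from 4 wild-type to 63 knockout reads (limma adjusted p = 0.0287). LPL had at most 1.78 normalized counts, and APOBEC1, the enzyme that edits APOB RNA in intestine, had no read. VLDLR passed in each of the 6 fits without 1 library. LIPG did not without knockout replicate 3 (limma adjusted p = 0.0521) and MYLIP not without wild-type replicate 1 (0.0588). SORT1 was lost in the 5 that left out any library but knockout replicate 1, LRP1 in 4 (any wild-type library or knockout replicate 3), and LIPC in all 6, with adjusted p-values up to 0.108, 0.150 and 0.116.

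**Figure D4:**
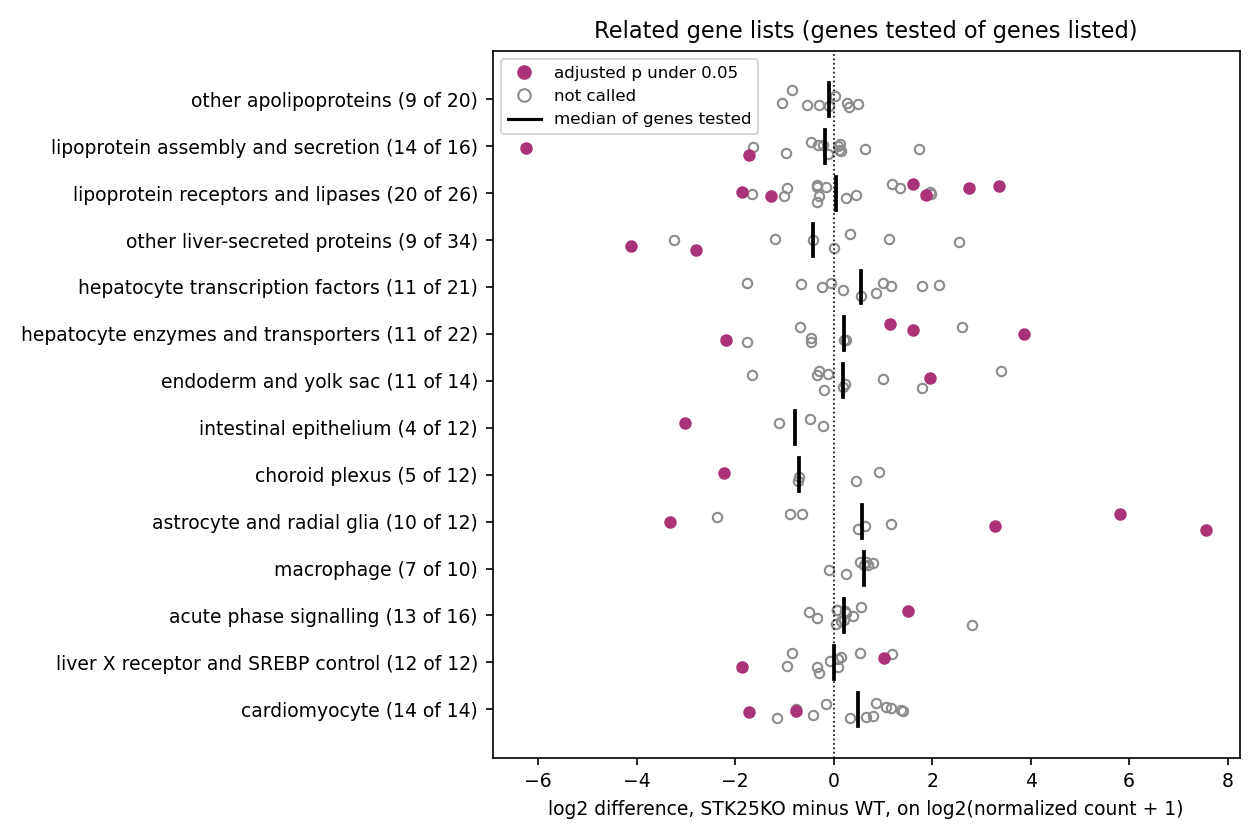
Log2 difference (STK25KO minus WT) of the tested genes in each related list, apart from the 10 described genes; filled points have a limma adjusted p under 0.05, open points do not, and black lines are medians. Called genes lie on both sides of 0 in most lists that hold several, and none lie in the lists of other apolipoproteins, hepatocyte transcription factors or macrophage genes.

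Of 34 other liver-secreted proteins, 25 had a mean under 10 and 6 of those no read at all, among them AFM, GC, ORM1 and CRP. Of the 9 tested, 2 passed and both fell: HAMP and SAA2. HAMP, the iron hormone hepcidin, which heart muscle also makes, had 148, 470 and 190 normalized counts in the wild type and 22.9, 8.92 and 9.78 in the knockout (log2 difference -4.12, SE 0.59, limma adjusted p = 0.00425). SERPINA1 (151 ± 34.9 and 115 ± 33.8), TF (210 ± 48.0 and 209 ± 31.0) and VTN (160 ± 17.8 and 201 ± 22.1, SD, n = 3 each in the wild type and the knockout) did not pass.

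Markers of other cell types were counted beside these results. Of 21 hepatocyte transcription factors, 11 were tested and 0 passed with limma or edgeR, 1 with DESeq2 and 4 at an unadjusted limma p under 0.05. The log2 difference was above 0 for 7 of the 11, with a median of 0.55. CEBPB, PPARA, TBX3, FOXA3, HHEX and NR1I3 were higher and ONECUT1 lower without overlap, where 33.4% of all tested genes had no overlap. CEBPB had 451 ± 105 and 658 ± 133 normalized counts in the wild type and the knockout (SD, n = 3 each). FOXA3, HHEX, NR1I3 and ONECUT1 did not exceed 38.1. FOXA2, NR1H4 and CREB3L3 had no read, and HNF4A had at most 13.4 normalized counts. Of 22 hepatocyte enzymes and transporters, 11 had a mean under 10 and 4 passed: the keratins KRT18 (log2 difference 1.61, limma adjusted p = 0.00348) and KRT8 (1.14, limma adjusted p = 0.0218), which many cell types make, were higher, the transferase UGT2B4 was higher (3.87, limma adjusted p = 0.0482, named after its values were seen) and the urea cycle enzyme CPS1 lower (-2.19, limma adjusted p = 0.0387). KRT18 passed without each library in turn; KRT8 and UGT2B4 were each lost in 5 of those 6 fits and CPS1 in 4, with limma adjusted p-values up to 0.106, 0.151 and 0.148; knockout replicate 1 alone could be left out for KRT8, wild-type replicate 3 for UGT2B4, and wild-type replicate 2 or knockout replicate 2 for CPS1. DESeq2 called 3 genes of this list and edgeR with TMM 2. Over all alternatives in which it was tested, UGT2B4 lost its call in 14 of 19, DESeq2 and both edgeR fits among them. CPS1 lost its call in 7 of 20, both edgeR fits among them, KRT8 in 9 of 20 and KRT18 in 1 of 20. The summed level of this list ran from 113277 to 120615 in the wild type and 276805 to 308256 in the knockout, set mostly by KRT8 and KRT18. The endoderm and yolk sac list, without AFP and TTR, had summed levels of 12820 to 20824 and 13571 to 23497, most of it GATA4 and GATA6, which cardiomyocytes also express. SOX17, an endoderm factor, had no read in the wild type and 0, 22.3 and 2.67 normalized counts in the knockout. CXCR4 was the 1 of its 11 tested genes that passed (1.96, limma adjusted p = 0.00664).

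Of 12 intestinal genes 6 had no read, CDX2 among them, and FABP2, an intestinal fatty acid carrier, had 257, 286 and 232 normalized counts in the wild type and 52.1, 33.4 and 16.9 in the knockout (log2 difference -3.01, SE 0.46, limma adjusted p = 0.00568). Of the 4 intestinal genes tested, FABP2 alone passed. The summed intestinal list was 330 to 352 in the wild type, most of it FABP2, and 78.2 to 155 in the knockout. Of the choroid plexus genes, a tissue that makes TTR, the folate receptor FOLR1 fell by 2.23 (limma adjusted p = 0.0170; up to 0.0577 without knockout replicate 2 or 3), while KL had reads in 1 library and the summed list was 1587 to 2000 and 2013 to 2313. In the astrocyte and radial glia list, cells that make APOE, 3 of 10 tested genes rose and 1 fell. AQP4, a water channel, differed by 7.56 (limma adjusted p = 0.000131), SOX2 by 5.81 (0.00256) and PAX6 by 3.28 (0.0364). S100B, named after its values were seen, differed by -3.32 (limma adjusted p = 0.0261). The summed level of this list was 10044 to 10635 in the wild type and 21451 to 23994 in the knockout. Most of that sum came from list genes not named here, with AQP4 at 2845 ± 598 in the knockout (SD, n = 3). PAX6 was lost in each of the 6 fits without 1 library and S100B in 5, all but the one without knockout replicate 1, with limma adjusted p-values up to 0.127 and 0.102. GFAP did not exceed 113 normalized counts. The macrophage list, another source of APOE, had summed levels of 236 to 848 and 527 to 848, with 0 of 7 tested genes passing with limma, DESeq2 or edgeR and 0 at an unadjusted limma p under 0.05, and C1QB and C1QC had no read. In the macrophage list 6 of the 7 tested genes had a log2 difference above 0, with a median of 0.63, against 0.01 for all tested genes. The part of any of these cells in the levels of the 10 genes was not tested.

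Acute-phase signalling genes, which control SAA1 and FGB in liver, were measured as well. Of 13 tested, 1 passed: LIFR, a cytokine receptor, rose by 1.51 (SE 0.34, limma adjusted p = 0.0265). It was lost in 5 of the 6 fits without 1 library, all but the one without knockout replicate 1, with limma adjusted p-values up to 0.0922. IL6 had no read. The log2 difference was above 0 for 11 of the 13 tested genes, with a median of 0.22, against 0.01 for all tested genes. STAT3 had 4266 ± 1408 and 3374 ± 1027 normalized counts and its target SOCS3 211 ± 68.2 and 221 ± 80.9 in the wild type and the knockout (SD, n = 3 each), with overlapping groups.

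Genes with a level most like that of APOB, APOE or TTR over the 6 libraries were named by the highest Pearson correlation of log2(normalized count + 1) among 13018 genes with a mean of at least 50. For APOB they were FZD7 (r = 0.999), HOMER1 (0.998) and C21orf91 (0.997). For APOE they were ATP6V1E1, CRBN and TIMM50 (each 0.999) and for TTR B4GALT7 (0.995), RNASEH2A (0.994) and FERMT1 (0.993). FZD7, a Wnt receptor, had 66.3 to 133 normalized counts in the wild type and 990 to 1354 in the knockout. The 6 libraries share 2 genotypes and their depth, and 22 genes exceeded 0.99 with APOB, 74 with APOE and 6 with TTR.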

How the data were processed

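The deposited table held 1 value per gene symbol for 6 libraries, 3 wild-type and 3 STK25KO, matched to samples by the column names in the labels; 0 columns were left unused. Per the labels' protocols, RNA came from RNeasy columns with DNase on the column, and the cDNA (Clontech Ultra Low v4) went into NexteraXT libraries. The submitters' processing notes name bcl2fastq 2.19, kallisto 0.44.0, DESeq2 1.28.1 and GRCh38, with no role or order; the annotation is not given in the sources used here. The values are a signal that the authors call normalized counts: 100% were whole multiples of 1 step per library, within 0.01. Whole numbers, called reads here, were therefore recovered by division. kallisto estimates counts per transcript, and reads shared by paralogs could not be assigned anew. Replicates differed by more than counting noise (chi-square over its degrees of freedom, 19.95 or more), so each library was 1 replicate. Molecular identifiers are not mentioned in the labels. Intervals and the floor of 3 reads treat the recovered whole numbers as observed reads and reflect counting error alone.

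The main test was limma 3.58.1 (R 4.3.3; lmFit, eBayes with trend) on log2(value + 1), keeping genes whose mean reached 10, with Benjamini-Hochberg adjustment over all 15536 genes tested and a threshold of 0.05. An exact permutation test of 3 against 3 libraries cannot go below p = 0.1. The 10 genes, the related lists and the tests were chosen with earlier results of these data known. Genes named were the 10, STK25, chromosomal neighbours, MTTP, LRP1, VLDLR and LPL, the called hepatocyte factors, and up to 4 called genes per other list, by size, if the groups did not overlap and the higher mean reached 50; genes outside this rule give values for list members at or near 0 or known in the pathway and were chosen after their values were seen. Some listed genes are not reported here. Transcript length is that of the longest principal coding transcript in GENCODE 29; promoters are from RefSeq. Alternatives were other pseudocounts, filters and scalings, a robust fit, the replicate number as a block, edgeR 4.0.16 (deposited factors or TMM), DESeq2 1.42.0 and leaving out libraries; a length correction, and leaving out wild-type replicate 2 with knockout replicate 1, were chosen after seeing the data. The fits were run on simulated independent counts without a shift by transcript length, so that run does not cover the libraries that stood apart here. Figures used Python 3.11.15 and matplotlib 3.10.9.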

Additional observations from a re-analysis of the deposited data

How the results depend on the processing

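All 8 tested genes kept their direction in every alternative in which they were tested (20 each, or 19 for APOA2, TTR and FGB, which a mean of at least 50 removed). The log2 difference ran from 4.98 to 8.99 for APOB, 0.93 to 1.58 for APOE, -0.98 to -0.42 for APOA1, -3.99 to -1.05 for APOA2, -6.55 to -3.12 for AFP, -3.01 to -1.51 for TTR, -8.34 to -2.10 for FGB and -9.71 to -4.54 for SAA1, and for APOB, AFP and SAA1 the ends came from pseudocounts of 0.1 and 10. Depth limits precision for APOA2, TTR, ALB and APOC3, which had at most 48, 112, 27 and 3 reads in a library. Leaving out 1 library moved the passing genes among the 10 from 5 to between 3 and 7, those in the related lists from 23 to between 10 and 24 and those of the whole table from 1982 to between 796 and 2181. Without both wild-type replicate 2 and knockout replicate 1 the counts were 7, 37 and 4483. DESeq2 called 3210 genes of the whole table, edgeR with TMM 1864, and limma after the length correction 2950. The replicate block left 3 of the 10 genes, 10 of the related genes and 798 of the table. The cause of these moves was not tested. Same-numbered libraries correlated at -0.235, -0.400 and 0.169 in their deviations from the genotype means. They did not all correlate best with their own number. The highest correlation, 0.4485, joined wild-type replicate 2 and knockout replicate 1, which both stood apart for short transcripts. Whether the numbers pair the samples cannot be decided from these values. Scaling to equal totals left 549 higher and 1457 lower calls (27.4% higher, against 46.8%).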

Other observations

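Genes that control cholesterol and lipoprotein receptors were also listed. Of 12 liver X receptor and SREBP genes, all tested, 1 rose and 1 fell with limma. SREBF1, a transcription factor of lipid synthesis, had 730, 685 and 744 normalized counts in the wild type and 1305, 1660 and 1460 in the knockout (log2 difference 1.03, SE 0.19, limma adjusted p = 0.0137). Leaving out wild-type replicate 1 or 3, or knockout replicate 2 or 3, ended that call, with limma adjusted p-values up to 0.0705. The gene that fell was MYLIP. The receptor NR1H3 (500 ± 83.8 and 733 ± 156) and its target ABCA1 (222 ± 129 and 106 ± 33.9, SD, n = 3 each in the wild type and the knockout) had overlapping groups. ABCG1, of the same list, had means of 226.3 and 558.4 in the wild type and the knockout (log2 difference 1.18, limma adjusted p = 0.1005). Of the 12 genes, 6 had a log2 difference above 0.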
